A study of Arabidopsis thaliana with 12 samples.

Results

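Lignin is the phenolic polymer that stiffens xylem vessels and fibres. Lignin itself was not measured here, and only the RNA of 5 genes was followed. They were HCT (AT5G48930), CCOAMT (AT1G67980) and the class III peroxidases PRX52 (AT5G05340), PRX72 (AT5G66390) and AT2G41480 (PRX25 among its RefSeq synonyms). Each had exactly 1 single-gene probe set, none with the suffix that marks probe sets shared between transcripts. They are 5 of the 13356 genes with a single-gene probe set. They were chosen by locus, from genes selected on earlier results of these same arrays. HCT and CCOAMT were called against WT in the double mutant and AT2G41480 in C3H15-OE. PRX52 and PRX72 were taken from an earlier, shorter list of lignin genes on these arrays. Both contrasts that were used in this way are therefore given for the 5 genes as a description, with no test. Adjusted p-values printed there for these genes show only how a call varies with the fit.

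Stem bases of 4 cm were taken from Arabidopsis thaliana plants with inflorescences of 12 to 17 cm, all of ecotype Col-0, and their RNA was read on Affymetrix arrays. The 4 groups, of 3 arrays each, were WT, C3H14 overexpressors (C3H14-OE), C3H15 overexpressors (C3H15-OE) and the c3h14c3h15 double mutant. Both C3H proteins are CCCH zinc fingers of close kinship, and the study's design text names secondary walls and pollen. The labels name neither the promoter behind each transgene, nor the mutant alleles, nor how many transgenic lines stand behind a group. Titles number the arrays as biological replicates without saying what separates them, and p-values measure that spread.

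Lignin is made in cells that deposit secondary walls. Enzymes of the phenylpropanoid pathway turn phenylalanine into monolignols, which leave the cell and are then oxidised to radicals by laccases and class III peroxidases and couple in the wall. HCT transfers p-coumaroyl groups to shikimate, a step on the way to the guaiacyl and syringyl units of lignin. CCOAMT (AT1G67980) is named as a caffeoyl-CoA methyltransferase. It is not CCoAOMT1, the family's main enzyme of stem lignin, and its next locus in RefSeq is TSM1 (AT1G67990), a tapetum methyltransferase. Arabidopsis mutants of PRX52, of PRX72 and of PRX25 have been described as changed in stem lignin. In whole-stem RNA, fewer cells of a type and less transcript per cell cannot be told apart.

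Over the 22746 probe sets tested, the median log2 intensity averaged over arrays was 5.76. HCT lay at the 97.9th percentile of mean level, CCOAMT at the 58.1st, AT2G41480 at the 51.4th, PRX52 at the 24.4th and PRX72 at the 7.49th. PRX72 and PRX52 were thus dim, and no detection calls were among the values used here. The spread within groups was wide for 3 of the genes. Their within-group SD was 0.88 log2 units for PRX52, 0.74 for AT2G41480 and 0.64 for CCOAMT, at or above the 97.6th percentile of all probe sets, against 0.20 for HCT and 0.07 for PRX72.

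As a check of the labels, C3H14 averaged a log2 intensity of 8.20 ± 1.03 (SD, n = 3) in its overexpressor against 6.85 ± 0.67 in WT. C3H15-OE averaged 5.52 ± 0.42 and the mutant 6.35 ± 0.24. The mutant arrays overlapped WT, at -0.50 (adjusted p = 0.583 by limma), and averaged above C3H15-OE, so C3H14 does not set the mutant apart here. Which part of the gene the probe set and the mutation cover was not examined. The array labelled C3H14-OE replicate 3 read 7.07 for C3H14, within the WT range. C3H15 had no probe set named here. On the first principal component (44.5% of the variance) C3H14-OE replicate 3 scored 40.8, within the span of the C3H15-OE arrays (27.6 to 48.1), while replicates 1 and 2 of that group scored 14.6 and 8.14. WT replicate 2 and mutant replicate 1 also stood apart from their groups, toward the overexpressors. Values that turn on these arrays are given with and without them. The stem label was checked on the 3 of 15 xylem and fibre wall markers with a named probe set, IRX10, IRX15 and IRX15L, xylan synthesis genes, which read 8.79, 8.33 and 8.90 in WT.

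**Figure D1:**
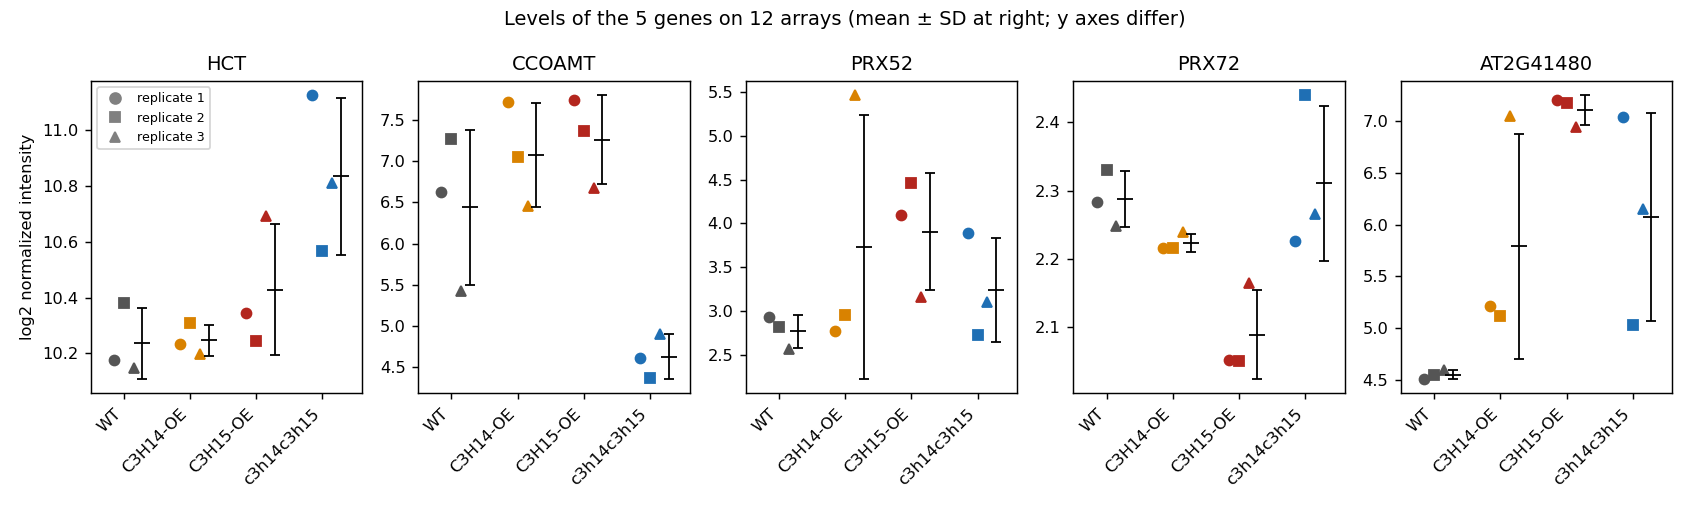
Log2 normalized intensity (y axis, a different range in each panel) of HCT, CCOAMT, PRX52, PRX72 and AT2G41480 on the 12 arrays, by group (x axis). Symbols are single arrays by replicate number, and the bar to the right of each group is the mean ± SD of 3 arrays. CCOAMT is lowest in the c3h14c3h15 mutant, HCT highest there, and AT2G41480 is above WT on all 9 other arrays.

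HCT was highest in the double mutant. On the log2 scale it read 10.18, 10.38 and 10.15 in WT (replicates 1 to 3) and 11.13, 10.57 and 10.81 in c3h14c3h15. All 3 mutant arrays lay above the highest WT array. In linear terms the group means were 1209 in WT and 1849 in the mutant, and the log2 difference was 0.60 (SE 0.15), or 1.51-fold. HCT read 10.24, 10.31 and 10.20 in C3H14-OE, all within the WT range, and 10.35, 10.25 and 10.69 in C3H15-OE, where replicate 3 alone was above the WT range. From highest to lowest the order was c3h14c3h15, C3H15-OE, C3H14-OE and WT, and each group overlapped the next.

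The call of HCT in the mutant, by which it was chosen, lay just inside the threshold, with an adjusted p of 0.0453 by limma. The call was kept in 2 of 12 fits that left out 1 array each, which leave out C3H15-OE replicate 3 or c3h14c3h15 replicate 2. It was lost without any other array of the 4 groups, where the adjusted p rose to at most 0.131. The difference itself ran from 0.45 without mutant replicate 1 to 0.73 without mutant replicate 2. Without the 3 arrays that stood apart it was 0.53.

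Xylem and fibre wall markers moved in the mutant as well. The summed intensity of the 3 named markers was 1180 to 1371 in WT and 2132 to 2784 in the mutant. There 2 of the 3 rose (IRX15L by 1.20, adjusted p = 0.0242, and IRX15 by 0.94, adjusted p = 0.0454, by limma), calls kept in 8 and 3 of the 12 fits without 1 array. In C3H14-OE the sum was 718 to 854, and in C3H15-OE 385 to 877, where all 3 fell and HCT stood at 0.19 (SE 0.15). Those calls were kept in 5 of 12 fits without 1 array for IRX10 and in 8 each for IRX15 and IRX15L. That of IRX10 was also lost with 16 added (adjusted p = 0.0579) and in a fit to only the arrays compared (adjusted p = 0.0868). Green cortex markers also moved in the mutant. Their sum, over the 4 of 6 named, was 5708 to 6217 in WT and 7945 to 11102 in the mutant. It was 3794 to 4930 in C3H14-OE and 4229 to 4925 in C3H15-OE, both below WT. In the mutant LHCB4.3, a light-harvesting protein, was higher by 1.85 (adjusted p = 0.00861 by limma) and SBPASE, a Calvin cycle enzyme, by 1.28 (adjusted p = 0.0129). There PRK (0.78, adjusted p = 0.0669) and LHCB4.1 (0.30, adjusted p = 0.201) did not pass. The part of either list in the value of HCT was not tested.

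CCOAMT went the other way in the double mutant. It read 6.63, 7.28 and 5.42 in WT and 4.61, 4.36 and 4.91 in c3h14c3h15. The mutant arrays lay below all WT arrays, by 0.51 log2 units at the closest, which was WT replicate 3. The difference was -1.82 (SE 0.44), a level 3.52-fold lower in the mutant. CCOAMT read 7.72, 7.05 and 6.46 in C3H14-OE and 7.75, 7.36 and 6.68 in C3H15-OE. Both overexpressor groups overlapped WT and each other, and only the mutant stood apart in the order of C3H15-OE, C3H14-OE, WT and c3h14c3h15. Set directly against the mutant, CCOAMT was higher by 2.46 (SE 0.44) in C3H14-OE and by 2.64 (SE 0.44) in C3H15-OE, with no overlap of arrays.

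The size of this difference depended on WT replicates 2 and 3, the highest and lowest of their group. Leaving out WT replicate 2 gave -1.40, and leaving out replicate 3 gave -2.33. The call that chose CCOAMT was kept in 5 of the 12 fits without 1 array: those without WT replicate 3, C3H14-OE replicate 1 or 3, and C3H15-OE replicate 1 or 3. In the others the adjusted p reached 0.116. Without the 3 arrays that stood apart the difference was -1.39. Defence and wounding markers, 3 of 6 named, had summed intensities of 119 to 214 in WT, 268 to 1098 in C3H14-OE, 315 to 723 in C3H15-OE and 166 to 188 in the mutant. Their part in the level of CCOAMT was not tested.

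AT2G41480 was lowest in WT and most uniform there. It read 4.51, 4.55 and 4.60 in WT, 5.21, 5.12 and 7.05 in C3H14-OE, 7.20, 7.17 and 6.94 in C3H15-OE and 7.03, 5.03 and 6.15 in c3h14c3h15. All 9 arrays of the other groups were above the WT range. In linear terms WT averaged 23.5 and C3H15-OE 138. The log2 difference from WT was 2.55 (SE 0.51), or 5.86-fold, in C3H15-OE and 1.52 (SE 0.51) in the mutant. The overexpressor of C3H15 and the double mutant thus both stood above WT, in comparisons that share the WT arrays. The mutant arrays spread from 5.03 to 7.03 and overlapped both overexpressor groups.

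The difference of AT2G41480 in C3H15-OE, by which the gene was chosen, varied little with any single array, from 2.50 to 2.63. Its call was kept in 8 of the 12 fits without 1 array and lost when replicate 1 or 3 of WT or 1 or 2 of C3H15-OE was left out (adjusted p at most 0.0724 by limma). In the mutant the difference was 1.04 without mutant replicate 1 and 2.04 without mutant replicate 2. Over all 12 arrays the mutant difference was not called (adjusted p = 0.104 by limma). Past the threshold were 2 of the 12 fits without 1 array. They left out C3H14-OE replicate 3 (adjusted p = 0.0347) or mutant replicate 2 (adjusted p = 0.0383). In the others the adjusted p reached 0.281, and 0 of 9 other settings lay past the threshold. These values describe a gene chosen on these same arrays and are no test of it. WRKY53, a regulator of leaf senescence and of defence, averaged a log2 intensity of 5.61 in WT and 7.61 in C3H15-OE (SE of the difference 0.34, adjusted p = 0.0103 by limma), and the sums of the defence and wounding markers given above did not overlap between these groups. In the mutant, where AT2G41480 was also high, the marker sums lay within the WT range. The single markers did not move alike there. WRKY53 stood at -0.53, ZAT10, a zinc finger, at -0.05 and the calmodulin-like CML38 at 1.09, and none passed (adjusted p = 0.403, 0.967 and 0.503 by limma). In C3H15-OE, where WRKY53 passed, ZAT10 stood at 1.31 and CML38 at 1.30, and neither passed (adjusted p = 0.123 and 0.373 by limma). The part of these markers in the level of the gene was not tested.

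PRX52 was read at dim levels in every group. It read 2.94, 2.81 and 2.57 in WT, 2.77, 2.95 and 5.46 in C3H14-OE, 4.09, 4.46 and 3.16 in C3H15-OE and 3.89, 2.73 and 3.10 in c3h14c3h15. The C3H15-OE arrays were all above WT, with a difference of 1.13 (SE 0.60). Without the 3 arrays that stood apart it was 1.15 (SE 0.32), while over all 12 arrays C3H14-OE and mutant arrays overlapped WT. The fit without those 3, chosen after the data were seen, was the only 1 of 8 other settings past the threshold (adjusted p = 0.0475 by limma). Over all 12 arrays the adjusted p of PRX52 in C3H15-OE was 0.273, and 0 of 12 fits without 1 array passed. These values describe a gene chosen with earlier results of these arrays known and are no test of it. In linear terms WT averaged 6.87 and C3H15-OE 16.0, so that the log2 difference spans few units of intensity. With 16 added to each intensity the differences of PRX52 in the 3 comparisons with WT lay between 0.17 and 0.48. The mutant difference was 0.47 (SE 0.60), or 0.14 without mutant replicate 1. In the order of C3H15-OE, C3H14-OE, c3h14c3h15 and WT each group overlapped the next.

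PRX72 stood near the lowest signals of the arrays and varied least. It read 2.28, 2.33 and 2.25 in WT, 2.22, 2.22 and 2.24 in C3H14-OE, 2.05, 2.05 and 2.17 in C3H15-OE, and 2.23, 2.44 and 2.27 in c3h14c3h15. The arrays of C3H15-OE lay below those of all other groups, at -0.20 (SE 0.09) from WT, or means of 4.26 against 4.88 on the linear scale. This difference was -0.13 after cyclic loess and -0.044 with 16 added to each intensity. The mutant difference was 0.02 (SE 0.09). At this level the array does not show whether the gene is transcribed in the stem.

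**Figure D2:**
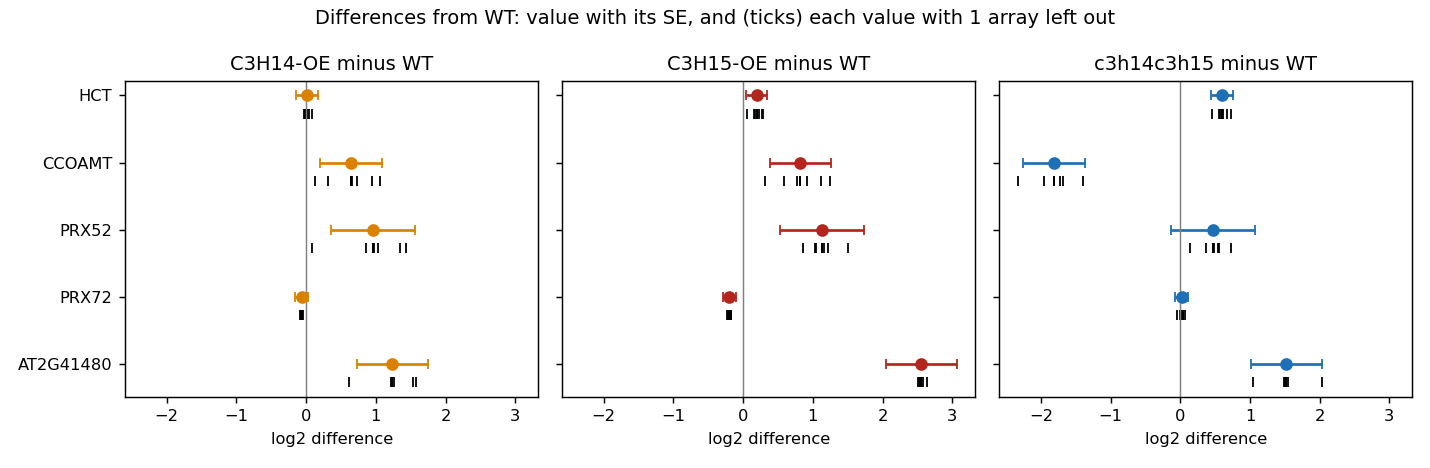
Log2 difference from WT (x axis) of each of the 5 genes (y axis) in C3H14-OE, C3H15-OE and c3h14c3h15, one panel each. Points with bars are the value and its SE over all 12 arrays, and the ticks beneath are the values with each array left out in turn. AT2G41480 in C3H15-OE keeps to 2.50 to 2.63, while PRX52 in C3H14-OE drops to 0.09 without replicate 3.

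No gene was chosen by a call in C3H14-OE against WT, although this comparison shares the WT arrays and the estimate of spread with those that chose. Through that spread the C3H14-OE arrays bore on the choice. In the mutant the call of HCT was lost without any 1 of them, and that of CCOAMT without C3H14-OE replicate 2. Tested by limma over all probe sets, 0 of the 5 genes were higher and 0 lower in C3H14-OE. There 0.0176% of all probe sets were called higher and 0.0264% lower. Without the 3 arrays that stood apart, 48 probe sets were called higher and 142 lower, none of them one of the 5 genes. At an unadjusted p under 0.05 there was 1 of 5, AT2G41480, against 14% of all probe sets. AT2G41480 stood at 1.24 (SE 0.51, adjusted p = 0.318), with 3 of 3 arrays above the WT range. It was at 0.61 without C3H14-OE replicate 3, the array that scored among C3H15-OE (adjusted p = 0.689). PRX52 stood at 0.96 (SE 0.60, adjusted p = 0.495) and at 0.09 without that array. The PRX52 value thus rested almost wholly on C3H14-OE replicate 3, while all 3 arrays of the group placed AT2G41480 above WT.

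CCOAMT stood at 0.64 in C3H14-OE (SE 0.44, adjusted p = 0.536), with 1 of 3 arrays above the WT range. It was at 0.13 without WT replicate 3, at 1.06 without WT replicate 2 and at 0.32 without C3H14-OE replicate 1. HCT stood at 0.01 (SE 0.15, adjusted p = 0.981, 95% interval -0.33 to 0.35) and PRX72 at -0.06 (SE 0.09, adjusted p = 0.782, 95% interval -0.27 to 0.14). The sign of PRX72 turned to 0.017 after a second quantile normalization and 0.028 after cyclic loess, so that its 3 of 3 arrays below the WT range show no direction. HCT turned to -0.030 and -0.010 under the same settings.

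For reference, the comparisons that chose the genes called 2 of the 5 in the mutant, 1 higher and 1 lower, and 1 in C3H15-OE, higher. Over all probe sets 2.53% were called higher and 3.17% lower in the mutant, and 3.09% higher and 3.57% lower in C3H15-OE. Nothing can be read from the members' counts there, since the calls were the reason for the choice.

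PRX52 and AT2G41480 shared their high arrays. C3H14-OE replicate 3, mutant replicate 1 and C3H15-OE replicates 1 and 2 were the highest 4 arrays of both genes, and each other array read at most 3.16 in PRX52. After each group mean was taken off, the deviations of the genes had a Pearson r of 0.87 and a Spearman rho of 0.85 over the 12 arrays. Without the arrays with the largest deviations of AT2G41480 (C3H14-OE replicate 3 and mutant replicate 2) r was 0.83 over 10 arrays. The pair was singled out among 10 pairs after the values were seen, and the points share arrays and normalization, so r is given as a description. For the other 9 pairs the same r lay between -0.51, for PRX72 and AT2G41480, and 0.34, for HCT and AT2G41480. HCT and CCOAMT had an r of 0.07 within groups, next to -0.61 over the levels of all 12 arrays.

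**Figure D3:**
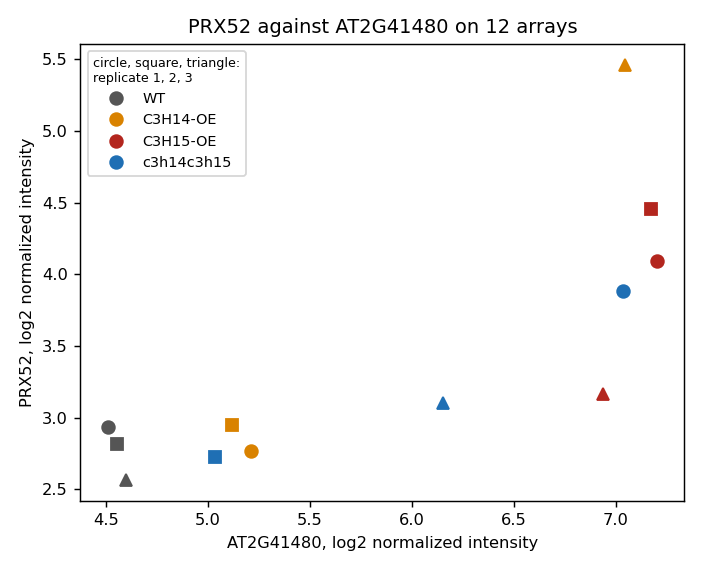
Log2 normalized intensity of PRX52 (y axis) against AT2G41480 (x axis) on the 12 arrays, coloured by group, with replicate numbers as symbols. The 4 arrays that are highest in both genes are C3H14-OE replicate 3, C3H15-OE replicates 1 and 2 and mutant replicate 1.

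Class III peroxidases form a family of secreted haem enzymes, and 55 of the 73 listed had a single-gene probe set. Of these 7 had a mean above the median of all probe sets, so that most were dim. Leaving out PRX52, PRX72 and AT2G41480, 0 of 52 were higher and 1 lower in C3H15-OE, 0 higher and 1 lower in the mutant, and 0 higher and 0 lower in C3H14-OE. Over all probe sets 3.09% were called higher and 3.57% lower in C3H15-OE, and 2.53% and 3.17% in the mutant. In C3H14-OE the shares were 0.0176% and 0.0264%. With shares this low, the counts of the 52 show little about the family. At an unadjusted p under 0.05 by limma there were 11 of 52 in C3H15-OE, where 24.6% of all probe sets stood there, 4 in the mutant against 21.8%, and 11 in C3H14-OE against 14%. AT1G71695 fell by 1.33 in C3H15-OE (SE 0.36, adjusted p = 0.0494) and AT3G21770 fell by 1.02 in the mutant (SE 0.27, adjusted p = 0.0479). These calls were kept in 3 of 12 and 2 of 12 fits without 1 array, with adjusted p-values of up to 0.163 and 0.157. The former was kept without C3H14-OE replicate 2 or 3 or mutant replicate 1, and the latter without C3H14-OE replicate 3 or mutant replicate 1. The call of AT3G21770 was also lost in 6 of 9 other settings, among them the replicate block (adjusted p = 0.0719) and both renormalizations (adjusted p = 0.0562 and 0.0580). That of AT1G71695 was lost in 2 of 9, with 16 added and with an intensity trend.

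Median differences of the 52 were -0.03, -0.08 and 0.04 in C3H14-OE, C3H15-OE and the mutant, next to -0.04, -0.03 and -0.01 for all probe sets. Of the 55, 42, 44 and 48 lay within 0.5 log2 units of WT. Only 7 of the 55 had a mean above the median of all probe sets, and dim signals limit what a small difference shows. In the mutant, AT2G41480 ranked highest of the 55 by difference from WT. It ranked the third in both overexpressors, behind AT4G08780 and AT4G08770, which were singled out after their values were seen. AT2G41480 was itself chosen by its call in C3H15-OE, and all the comparisons share the WT arrays. Its ranks are therefore a description. AT4G08780 stood at 3.15 in C3H15-OE (adjusted p = 0.0528) and -0.01 in the mutant (adjusted p = 0.996). Its SD in C3H15-OE was 1.82 against 0.14 for AT2G41480. AT4G08770 and AT4G08780 are next to each other in RefSeq, and on an array the signals of close copies may not be separate.

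**Figure D4:**
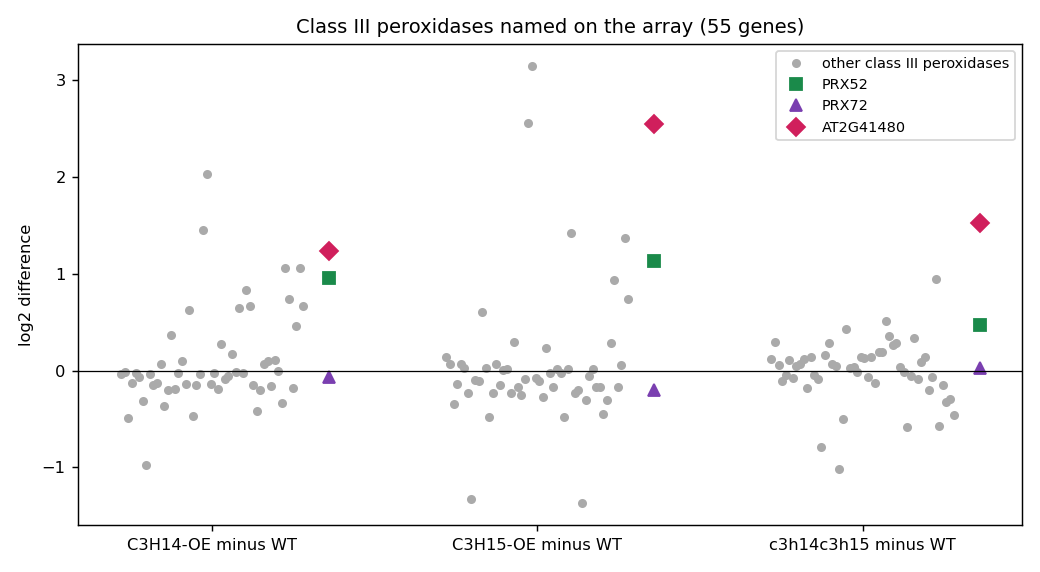
Log2 difference from WT (y axis) of the 55 class III peroxidases with a named probe set, in each of the 3 comparisons (x axis). Grey points are the other 52 peroxidases in order of locus, and coloured symbols are PRX52, PRX72 and AT2G41480. Most points lie within 0.5 of zero, and AT2G41480 is the highest in the mutant.

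The pathway around these genes was thinly named on the array. Of 31 listed monolignol genes 4 had a named probe set: HCT, CCOAMT, CCR2, a cinnamoyl-CoA reductase, and CYP84A4, a relative of the ferulate 5-hydroxylase of syringyl lignin. CYP84A4 fell by 1.14 in C3H15-OE (SE 0.31, adjusted p = 0.0493 by limma), a call kept in 3 of 12 fits without 1 array, those without WT replicate 2 or mutant replicate 1 or 2. It stood at -0.57 in C3H14-OE and -0.28 in the mutant. CCR2 stood at 1.38 (adjusted p = 0.290), 1.01 (adjusted p = 0.254) and 0.54 (adjusted p = 0.603) in C3H14-OE, C3H15-OE and the mutant. The core enzymes PAL1, C4H, 4CL1, CCoAOMT1, COMT1 and CAD5 were not analysed here.

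A list on glucosides and transport of monolignols and hydroxycinnamates was better covered, with 9 of 11 genes named. They were UGT glucosyltransferases and the beta-glucosidases BGLU45 and BGLU46, with no transporter among them. In C3H15-OE 2 rose and 1 fell, where 3.09% of all probe sets were called higher and 3.57% lower. In the mutant 1 rose, against 2.53% of all probe sets. In C3H14-OE 0 passed by limma, with 4 at an unadjusted p under 0.05 against 14% of all probe sets. The median differences of the 9 were 0.36, 0.44 and 0.10 in C3H14-OE, C3H15-OE and the mutant. UGT84A3, which makes glucose esters of hydroxycinnamates, rose by 1.07 in both C3H15-OE (SE 0.26, adjusted p = 0.0340) and the mutant (SE 0.26, adjusted p = 0.0354). UGT72E1, a glucosyltransferase acting on monolignol aldehydes, rose by 1.21 in C3H15-OE (SE 0.25, adjusted p = 0.0208) and stood at -0.82 in the mutant (adjusted p = 0.0792). UGT72E3 fell by 0.39 in C3H15-OE (SE 0.10, adjusted p = 0.0406), a call lost in 5 of 8 other settings. They include a second quantile normalization (adjusted p = 0.0618), cyclic loess (0.0744) and the replicate block (0.0704). Of the 12 fits without 1 array the calls in C3H15-OE were kept in 7, 8 and 4 for UGT84A3, UGT72E1 and UGT72E3, and that of UGT84A3 in the mutant in 7. The calls of UGT84A3 and UGT72E1 in C3H15-OE were lost when replicate 3 of WT or replicate 1 or 2 of C3H15-OE was left out. UGT84A3 was also lost there without replicate 2 of WT or replicate 3 of C3H15-OE, and UGT72E1 without WT replicate 1. UGT72E3 was lost without any array of WT or C3H15-OE or C3H14-OE replicate 1 or 2. In the mutant UGT84A3 was lost when replicate 2 or 3 of WT, 2 of C3H15-OE, or 1 or 3 of the mutant was left out.

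Other branches showed 0 calls among their few named genes, where at most 3.57% of all probe sets were called in either direction. The conjugate, laccase and flavonoid genes named were dim, with means of 1.91 to 3.63 against a median of 5.76. The absence of calls therefore does not show that these branches were unchanged. The list of hydroxycinnamoyl conjugates had 4 of 9 genes, with 0 at an unadjusted p under 0.05 in each comparison. FACT, a caffeoyl transferase to fatty alcohols, stood at -0.03, 0.26 and 0.29 in C3H14-OE, C3H15-OE and the mutant, and SHT, a spermidine transferase of pollen, at 0.04, -0.12 and 0.12. LAC16 was the single laccase of 17, at -0.09, -0.10 and 0.23, and DFR and BAN were the flavonoid genes, 2 of 8, none at an unadjusted p under 0.05 by limma. DFR stood at 0.20, 0.21 and 0.22 and BAN at -0.28, -0.27 and 0.03. Among 25 listed regulators C3H14 alone was named, at 1.34 in C3H14-OE (adjusted p = 0.258).

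**Figure D5:**
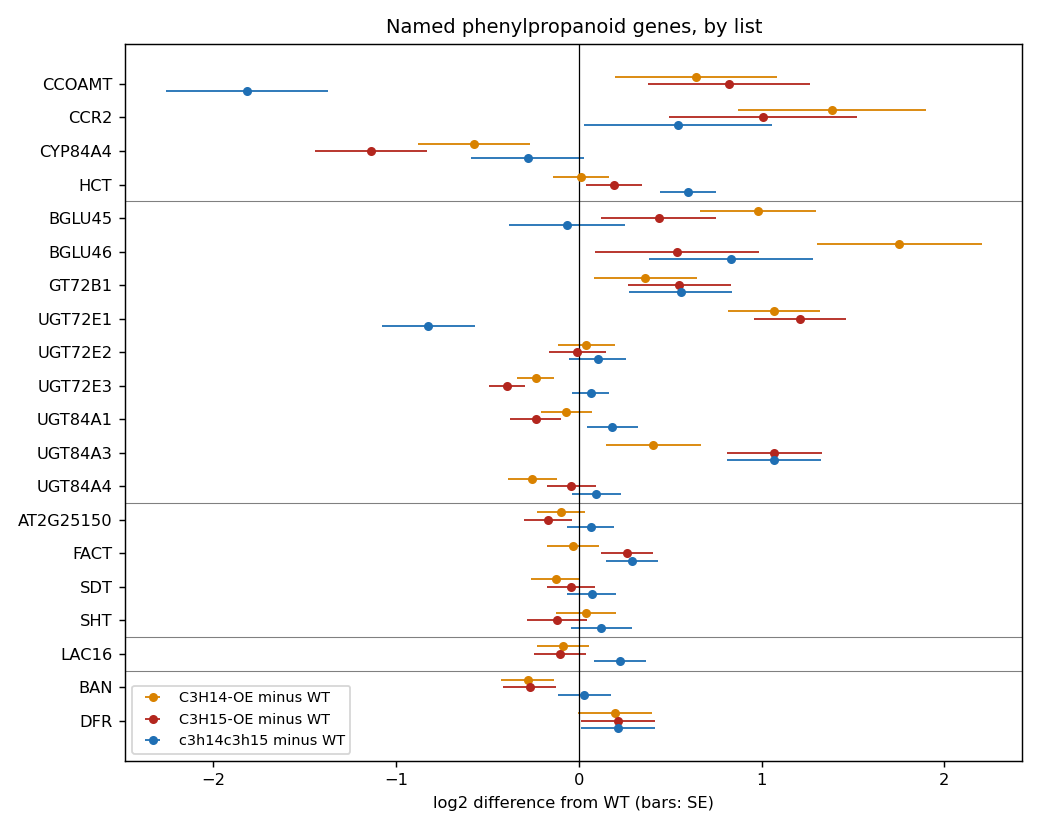
Log2 difference from WT (x axis, bars are SE) of the named genes of 5 phenylpropanoid lists (y axis, lists separated by lines: monolignol pathway, glucosides and transport, hydroxycinnamoyl conjugates, laccases, flavonoids). Colours mark the 3 comparisons. CCOAMT stands at -1.82 in the mutant and at 0.64 and 0.82 in C3H14-OE and C3H15-OE, whose arrays overlap WT. These differences share the WT arrays.

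The named genes most like each of the 5 were taken by Pearson r of log2 values over the 12 arrays, among 7328 or 7329 genes of the brightest 60% of probe sets. HCT was most like AT1G52870 (r = 0.90), AT1G75280 (0.90) and AT1G05170 (0.89), all of which were highest in the mutant. CCOAMT was most like AT1G50570 (0.97), AT1G03740 (0.96) and AT2G23680 (0.96), all lowest in the mutant. For PRX52 the genes were AT5G52390 (0.97), AT5G35320 (0.97) and AT4G33540 (0.95), with r within groups of 0.95 to 0.97. For PRX72 they were AT3G21670, AT3G08890 and AT3G27200, each at 0.92, in spite of its narrow range of 0.39 log2 units. AT2G41480 was most like AT4G20930 (0.96), AT4G39955 (0.96) and the subtilase ATSBT5.2 (0.94), each lowest in WT and highest in C3H15-OE. With so many genes and 12 arrays, high values of r are to be found for any gene, and they are given as a ranking alone.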

How the data were processed

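The table used was the series matrix of 12 Affymetrix arrays, with biotin-labelled cRNA made from 200 ng of RNA by a 3′ IVT kit, per the labels' protocols. The authors deposited intensity values on a linear scale after normalization. The submitters' processing notes name RMA, with no version or settings. Of 22810 probe sets, 64 controls were left out. Log2 was taken of the deposited values with no filter (array medians 5.65 to 5.84). No 2 arrays were identical (r from 0.953 to 0.995). The number of arrays limits precision.

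Probe sets were named from the platform annotation through Entrez identifiers and RefSeq (TAIR10.1): 13513 had 1 gene, 503 several and 8730 were unlisted and unnamed here. No coordinates or sequences are printed, since no build was named and no sequence table was given.

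Limma (3.58.1, R 4.3.3) fitted a mean per group to all 12 arrays (8 residual and 3.61 prior degrees of freedom). Benjamini-Hochberg adjustment ran over all 22746 probe sets tested, with a threshold of 0.05. The fit was also run on simulated data, with independent normal noise of the same spread in every group and changes added to C3H14-OE alone. That run does not cover groups of unequal spread or arrays that stand apart, as found here. The members, 13 gene lists (220 entries, 88 named), markers and alternatives were chosen with earlier results of these data known. The naming rule took all members. From each list it took genes past the threshold against WT (at most 4, or 8 peroxidases, by size), or with none up to 2 of the brightest. It also took 3 like genes per member. Other genes named were singled out afterwards. Phloem markers had no named probe set. The epidermal WSD1 stood at -0.40, -0.41 and 1.25 and the cambial MOL1 at -0.02, 0.18 and -0.52 in C3H14-OE, C3H15-OE and the mutant, and none passed.

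Same-numbered arrays were not taken as pairs: 4 of 18 such pairs had within-group deviations correlated above 0.1 (-0.27 to 0.27).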

Additional observations from a re-analysis of the deposited data

How the results depend on the processing

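In C3H14-OE minus WT the near-zero differences changed sign after a second quantile normalization (HCT -0.030, PRX72 0.017) and after cyclic loess (HCT -0.010, PRX72 0.028). HCT ran there from -0.033 to 0.085 with 1 array left out. PRX72 in C3H15-OE was -0.13 after cyclic loess and -0.044 with 16 added. The filter on dim probe sets removed PRX52 and PRX72. The calls that chose the genes are a description: outside single-array omissions, HCT in the mutant was lost in fits to only the arrays compared, with the replicate block, with array weights and without the 3 arrays that stood apart (the last chosen after seeing the data). CCOAMT was lost with 16 added, in only the arrays compared, with an intensity trend, with array weights and without the 3 arrays. The call of AT2G41480 in C3H15-OE was kept in 9 of 9 other settings.

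Counts over all probe sets moved more. In C3H14-OE, higher and lower calls were 1 and 2 with 16 added, 16 and 23 in only the arrays compared, 18 and 29 with array weights and 48 and 142 without the 3 arrays, and cyclic loess called 2 higher. In C3H15-OE array weights called 1366 higher and 1596 lower, and leaving out the 3 arrays 1204 and 1688. In the mutant the counts were 333 and 211 in only the arrays compared, 365 and 381 with array weights and 244 and 139 without the 3 arrays. With 1 array left out, C3H14-OE had 0 to 19 higher and 1 to 37 lower, C3H15-OE 121 to 891 and 102 to 1128, and the mutant 197 to 696 and 164 to 738.

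With the replicate block, C3H14-OE had 1 higher and 3 lower, C3H15-OE 535 lower, and HCT in the mutant an adjusted p of 0.0745 by limma. It ended no other call among the 5 genes. Among 15 calls of other listed genes and markers it ended 4: CYP84A4 (0.0706) and UGT72E3 (0.0704) in C3H15-OE, and AT3G21770 (0.0719) and IRX15 (0.0754) in the mutant, by limma's adjusted p. Other settings that ended calls were 16 added and an intensity trend for CYP84A4, and 16 added and leaving out the 3 arrays for UGT84A3 in both comparisons, which in the mutant was also lost in only the arrays compared and with array weights. In the mutant IRX15 was lost after a second quantile normalization, with array weights and without the 3 arrays, and IRX15L without the 3 arrays. Probe sets near the lowest signals, PRX72 and PRX52 among them, limit what can be read from a difference.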
